A study of Homo sapiens with 16 samples.

Results

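Kelly, an established human neuroblastoma cell line with amplified MYCN, was compared after 5 days of GSK126 with Kelly after 5 days of DMSO. GSK126 is a small-molecule inhibitor of the catalytic activity of EZH2 and was used at 2 uM, and DMSO was its vehicle control. The comparison held 2 GSK126 libraries and 2 DMSO libraries, taken by their labels alone from the 16 RNA-seq libraries of the study. The other 12 libraries were Kelly at day 2 and LAN-1, another neuroblastoma line with amplified MYCN, at days 2 and 5, with the same treatments in duplicate. All cells were of unmodified lines, and the labels leave unsaid whether duplicates came from separate cultures. The p-values therefore reflect the variation among these libraries, which may be technical.

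EZH2 is the enzyme of Polycomb repressive complex 2 (PRC2), which places methyl groups on lysine 27 of histone H3 at the promoters of genes that a cell keeps silent. Many of those genes specify other lineages, and their promoters are often rich in CG dinucleotides. Neuroblastoma arises from the sympathetic branch of the neural crest, and its cells can hold a noradrenergic state, with the enzymes that make noradrenaline, or a mesenchymal state, with matrix and adhesion genes. The histone mark itself was not measured in these libraries.

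The 4 libraries held from 1197716 to 1666190 counts, and the GSK126 libraries (1197716 and 1286026) were smaller than the DMSO libraries (1335222 and 1666190). Levels are given as CPM, counts scaled to a common library size by edgeR. Within duplicates, counts varied 1.22 times as much as counting alone gives in GSK126 and 1.23 times in DMSO. Genes that define sympathetic neuroblasts were well detected in both groups: GATA3 stood at 487 and 482 CPM in GSK126 and at 474 and 526 CPM in DMSO, and ISL1 at 165 and 174 CPM in GSK126 and at 179 and 179 CPM in DMSO. Markers that define endothelium, blood, epithelium and Schwann cells were at or near 0, while PDGFRB, of fibroblasts and smooth muscle, was read in all 4 libraries. CDH5 (endothelium) and PTPRC (blood cells) had no count in any of the 4 libraries, PECAM1 (endothelium) had 1 count in 1 GSK126 library, EPCAM (epithelium) had 2 and 3 counts in GSK126 and 0 and 2 in DMSO, and SOX10 (Schwann cells and glia) had 0 and 2 counts in GSK126 and none in DMSO.

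EZH2 mRNA, which codes for the drug's target, was not called: it stood at 182 and 179 CPM in GSK126, against 233 and 207 CPM in DMSO (log2 fold change -0.28 ± 0.11 SE, n = 2 libraries per group, edgeR adjusted p = 0.149). The inhibitor acts on the protein, so this level does not check the labels. None of the 11 PRC2 subunit and cofactor genes tested was called in either direction. The scaffold subunits EED (0.28 ± 0.26, adjusted p = 0.657) and SUZ12 (-0.20 ± 0.13, adjusted p = 0.454) and the alternative enzyme EZH1 (-0.10 ± 0.18, adjusted p = 0.86) had small estimates. The 19 PRC1 genes tested, whose products bind the mark, also held no call.

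GSK126 changed 581 of 11863 tested genes at an adjusted p under 0.05, of which 391 were higher (3.3% of those tested) and 190 were lower (1.6%), 4.9% in all. All 581 had libraries that did not overlap between the groups, as did 24.3% of all tested genes in the upward and 22.5% in the downward direction. The rises were larger than the falls: the median log2 fold change was 1.10 over the genes called higher and -0.50 over those called lower, beside 0.01 over all tested genes. The rises also sat lower in the range of expression, taken as the mean over all 16 libraries, those of LAN-1 among them. This mean can differ widely from the Kelly level: NOTCH2 averaged 1.05 CPM in Kelly DMSO at day 5 and 113 CPM over all 16. Among 1837 genes with a mean under 10 CPM over all 16 libraries, 80 were called higher and 4 lower. Among 7498 genes at 10 to 100 CPM the counts were 241 and 60, and among 2528 genes at 100 CPM or more they were 70 and 126. Small changes can be called only where counts are high, and the median size of a called change was 2.28, 0.98 and 0.45 on the log2 scale from the lowest class to the highest. Leaving out 1 library at a time lowered the number of calls to 304 without GSK126 replicate 1, 280 without GSK126 replicate 2, 355 without DMSO replicate 1 and 239 without DMSO replicate 2, and 141 of the 581 genes were called in all 4 of these fits (111 higher and 30 lower). DESeq2 called 163 of them. Of the genes called higher, 23 passed the filter on low counts only through the Kelly GSK126 libraries of day 5, so that they could be tested only if they differed.

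**Figure D1:**
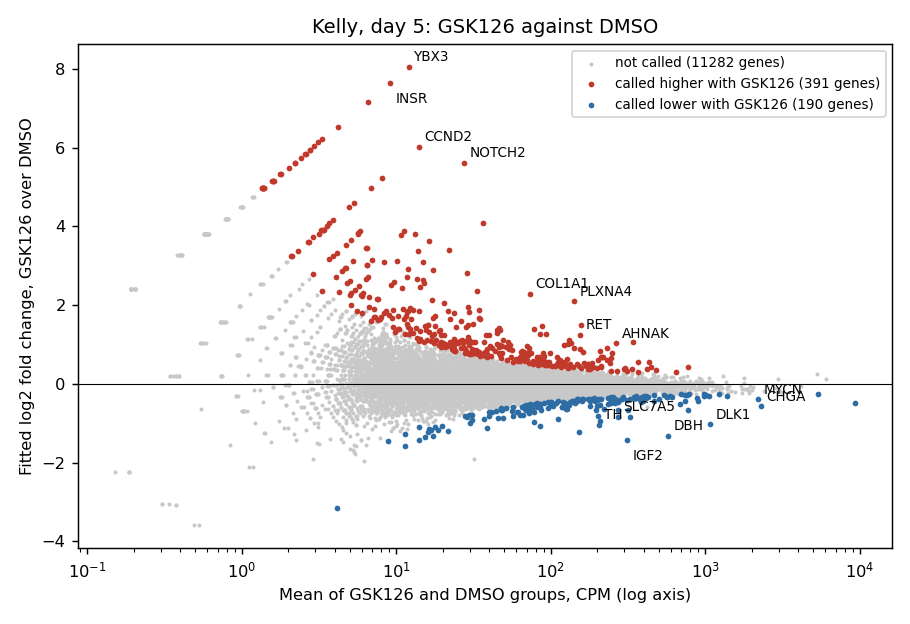
Fitted log2 fold change of GSK126 over DMSO in Kelly at day 5 (vertical axis) against the mean of the 2 group levels in CPM (horizontal, log axis) for 11863 tested genes. The 391 genes called higher spread far above 0 at low levels, and most of the 190 genes called lower lie close below 0 at high levels. Points on the slanted lines at the upper left have few or no counts in DMSO, and their fitted values depend on the prior count.

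A set of genes with almost no reads in DMSO was read in GSK126. Of the genes called higher, 47 had 0 or 1 count in the 2 DMSO libraries together, and 28 of them had none. No gene called lower had 0 or 1 count in the 2 GSK126 libraries. Over the whole table, called or not, 24 gene symbols had 10 or more counts in GSK126 and 0 in DMSO, and 1 symbol had the reverse, although the DMSO libraries held 1.21 times as many counts. One of the 47 symbols had been turned into a date and is not named, which leaves 46. Of these, 44 passed the filter on low counts through libraries other than Kelly GSK126 at day 5, and 2 passed only through those libraries.

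YBX3, a Y-box protein that binds DNA and RNA, INSR, the insulin receptor, and NOTCH2, a receptor of the Notch family, were among the genes that came on. Their promoters are shown with those of DBH and DDC, described further on, which code for enzymes of noradrenaline synthesis and fell. Each sequence runs from 250 bases before to 50 bases after the gene start in the RefSeq annotation of GRCh38, 5′ to 3′ on the gene's strand, with CG dinucleotides in capitals. The places are chr12:10723274-10723573 (minus strand) for YBX3, chr19:7294365-7294664 (minus) for INSR, chr1:120069613-120069912 (minus) for NOTCH2, chr9:133636113-133636412 (plus) for DBH and chr7:50565356-50565655 (minus) for DDC.
YBX3: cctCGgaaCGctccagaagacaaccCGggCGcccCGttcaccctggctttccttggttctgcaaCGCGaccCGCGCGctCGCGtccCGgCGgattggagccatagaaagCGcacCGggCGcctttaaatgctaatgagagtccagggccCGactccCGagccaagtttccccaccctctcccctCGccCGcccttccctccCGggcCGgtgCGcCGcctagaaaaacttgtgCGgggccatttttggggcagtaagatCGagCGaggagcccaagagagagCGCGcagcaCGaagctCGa
INSR: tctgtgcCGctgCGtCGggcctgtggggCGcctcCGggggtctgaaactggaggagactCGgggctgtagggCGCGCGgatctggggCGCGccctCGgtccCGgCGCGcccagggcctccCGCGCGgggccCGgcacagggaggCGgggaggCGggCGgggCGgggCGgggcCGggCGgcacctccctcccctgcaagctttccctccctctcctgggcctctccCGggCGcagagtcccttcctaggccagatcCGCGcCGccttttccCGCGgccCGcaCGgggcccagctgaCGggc
NOTCH2: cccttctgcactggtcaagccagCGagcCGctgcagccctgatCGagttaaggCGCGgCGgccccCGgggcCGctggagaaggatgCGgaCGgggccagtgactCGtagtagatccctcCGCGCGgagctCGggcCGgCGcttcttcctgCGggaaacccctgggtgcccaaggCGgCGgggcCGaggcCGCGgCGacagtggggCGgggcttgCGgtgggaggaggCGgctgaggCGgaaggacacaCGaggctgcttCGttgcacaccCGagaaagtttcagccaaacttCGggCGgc
DBH: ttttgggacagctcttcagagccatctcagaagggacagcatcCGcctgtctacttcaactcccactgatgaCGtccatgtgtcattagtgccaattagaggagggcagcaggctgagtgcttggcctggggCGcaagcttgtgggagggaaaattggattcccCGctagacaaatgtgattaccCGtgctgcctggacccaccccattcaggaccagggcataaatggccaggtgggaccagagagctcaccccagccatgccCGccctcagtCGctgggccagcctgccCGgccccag
DDC: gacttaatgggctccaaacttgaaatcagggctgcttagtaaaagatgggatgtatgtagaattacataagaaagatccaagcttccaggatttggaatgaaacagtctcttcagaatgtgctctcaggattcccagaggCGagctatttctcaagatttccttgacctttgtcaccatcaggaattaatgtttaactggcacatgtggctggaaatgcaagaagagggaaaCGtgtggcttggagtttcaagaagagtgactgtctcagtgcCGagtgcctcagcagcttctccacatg
The windows of YBX3, INSR and NOTCH2 held 32, 36 and 33 CG dinucleotides, and those of DBH and DDC held 8 and 3. These 5 do not stand for their sets. Other named genes that rose had few (1 in PHACTR2, 5 in TUBB4A, 5 in SASH1 and 8 in PDGFRA), and others that fell had many (50 in KLF15, 48 in CAMKK1 and 35 in INSM2). The median was 27 over the 9564 tested genes with an entry and 27 over the genes called lower. It was 26 over those genes called higher that had an entry, but at 76.2% they were too few for a comparison of that set.

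YBX3 was read at 24.6 and 23.7 CPM in GSK126 and had no count in either DMSO library. INSR stood at 21.3 and 15.3 CPM in GSK126, again with no count in DMSO. Against a floor of 3 counts over the DMSO group, YBX3 was at least 24.0-fold higher (adjusted p = 8.43e-14) and INSR at least 18.1-fold higher (adjusted p = 5.51e-11), with the GSK126 count taken as exact. CCND2, a D-type cyclin that drives entry into the cell cycle, had 37 and 33 counts in GSK126 and 0 and 1 in DMSO, a ratio of 82.6 with a 95% counting interval of 14.3 to 3307. CCND2 passed the filter on low counts only through the Kelly GSK126 libraries of day 5, so its call is no support. NOTCH2 had 50.0 and 57.3 CPM in GSK126, against 1.49 and 0.608 CPM in DMSO, a ratio of 53.5 (interval 17.9 to 262, adjusted p = 1.73e-21). In all 4 genes both GSK126 libraries lay far above both DMSO libraries, and the calls of YBX3, INSR and NOTCH2 were kept whichever of the 4 libraries was left out. Intervals and floors cover counting error only. They leave out variation between libraries and take each count as a separate molecule.

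Wide gaps between the groups were also found for SASH1, a scaffold protein of signalling complexes, with 22 and 18 counts in GSK126 and 1 and 0 in DMSO (adjusted p = 4.58e-08), and for CHRDL1, a secreted antagonist of bone morphogenetic proteins, with 15 and 19 counts in GSK126 and 0 and 1 in DMSO (adjusted p = 4.71e-07). SNX10, a sorting nexin of endosomes, was at least 8.26-fold higher (14 and 7 counts in GSK126, adjusted p = 6.77e-05), and COTL1, an actin-binding protein, at least 6.68-fold higher (5 and 12 counts, adjusted p = 0.000124). The other 5 of the 12 with the most GSK126 counts were LOC440416 (at least 13.0-fold higher) and 4 genes with 1 count in DMSO, namely MB21D2, KIAA1244, SPECC1 and IL13RA1, a receptor chain for interleukin 13, which had 18 to 26 counts each in GSK126. MB21D2 passed the filter only through the GSK126 libraries of day 5, like CCND2, and lost its call without DMSO replicate 2 (adjusted p = 0.0512). The other 4 kept theirs without any 1 library. Most members of the set were read more thinly: the 2 GSK126 libraries together held 7 to 70 counts, 13 at the median, and 12 of the 46 kept their call in all 4 fits without 1 library. Of the 46 genes, 42 already had a read in Kelly GSK126 at day 2, with a median sum of 4 counts, and 33 had 0 or 1 count in Kelly DMSO at day 2. Among the 12 with the most counts, the exceptions in Kelly DMSO at day 2 were CHRDL1 (2 and 5 counts), SNX10 (3 and 3), LOC440416 (1 and 2), MB21D2 (0 and 3) and SPECC1 (0 and 3).

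Most of these genes were read in LAN-1 without the drug, which the filter on low counts favours. In LAN-1 DMSO at day 5, 39 of the 46 stood at 10 CPM or more. The filter asked for about 7.17 CPM, while the 46 had a median of 13 counts over the Kelly GSK126 libraries of day 5. As 44 of them passed through other libraries, the share read in LAN-1 is no independent result. None of the 46 was called higher with GSK126 in LAN-1, where 2.45% of all tested genes were, so few calls would be due at that share. CCND2 was an exception, with no count in LAN-1 in either group at day 5. The Kelly levels were also set against those of LAN-1 for genes that LAN-1 expressed and Kelly did not. A fixed list of Y-linked genes and XIST was left out of this comparison. Of 10 tested genes with at least 100 CPM in LAN-1 DMSO at day 5 and 0 or 1 count in Kelly DMSO at day 2, 4 (HIST1H2BI, HIST1H3G, NID1 and CACNA1H) had no count in Kelly GSK126 at day 5. H19 and FGFRL1 stood at 0.222% and 0.355% of their LAN-1 level there, and H19 had 2 counts in Kelly DMSO at day 5 as well. CECR2 stood at 3.99%, AIF1L at 5.68%, INSR at 13.0% and YBX3 at 14.5%. The shares differed between genes, from 0 to 14.5%.

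Several receptor tyrosine kinases, which pass growth signals across the membrane, rose. Of 26 tested, 7 were called higher and none lower, against 3.3% and 1.6% of all tested genes, and their median log2 fold change was 0.31. The counts of every list that follows stand beside these same shares over all tested genes. The shares vary with the mean level over all 16 libraries. Under 10 CPM, 4.35% of genes were higher and 0.218% lower, and at 100 CPM or more, 2.77% and 4.98%. The lists were not matched for level. RET, the receptor of GDNF-family ligands in sympathetic neurons, stood at 234 and 205 CPM in GSK126 and at 91.2 and 92.4 CPM in DMSO (1.25 ± 0.12, adjusted p = 1.24e-14). PDGFRA, a receptor of platelet-derived growth factor that marks mesenchymal cells, had 28.7 and 24.4 CPM in GSK126, against 5.98 and 0.608 CPM in DMSO (3.09 ± 0.43, adjusted p = 8.79e-09). The DMSO libraries differed from each other in PDGFRA but stayed well below GSK126. KIT, the stem cell factor receptor, and KDR, a receptor of vascular endothelial growth factor, lie next to PDGFRA on chromosome 4 (55095447 to 55991762 for the 3 genes, GRCh37) and were called as well. KIT had 6 and 7 counts in GSK126 and 0 and 1 in DMSO (ratio 15.3, interval 2.30 to 652, adjusted p = 0.0101), and KDR had 14.8 and 7.64 CPM in GSK126 and 0 and 3.04 CPM in DMSO (2.66 ± 0.70). KDR passed the filter only through the GSK126 libraries of day 5, so its call adds no support to the count of 7. INSR was called too, as was DDR1, a collagen receptor (0.81 ± 0.24, adjusted p = 0.0307). The calls of RET, INSR and PDGFRA were kept without any 1 library. The other calls were lost without at least 1 library, with an adjusted p of up to 0.139 for KIT without DMSO replicate 1, and of up to 0.24 for KDR and 0.273 for DDR1 without GSK126 replicate 1.

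Some of the genes that the kinase ERK induces as its own feedback also rose. In a list of 13 feedback genes, 4 were called higher and none lower (median 0.37). PHLDA1, a regulator induced by growth factors, had 38.5 and 26.7 CPM in GSK126 and 8.97 and 6.69 CPM in DMSO (2.06 ± 0.32, adjusted p = 3.22e-07), and SPRY4, an inhibitor of receptor tyrosine kinase signalling, had 45.1 and 37.4 CPM in GSK126 and 16.4 and 14.0 CPM in DMSO (1.44 ± 0.26, adjusted p = 2.5e-05). The other members were ETV1, a transcription factor of the ETS family (0.77 ± 0.18), and DUSP6, a phosphatase that acts on ERK (1.39 ± 0.44). ETV1 lost its call without GSK126 replicate 2 (adjusted p = 0.161) and DUSP6 without DMSO replicate 1 (adjusted p = 0.394).

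**Figure D2:**
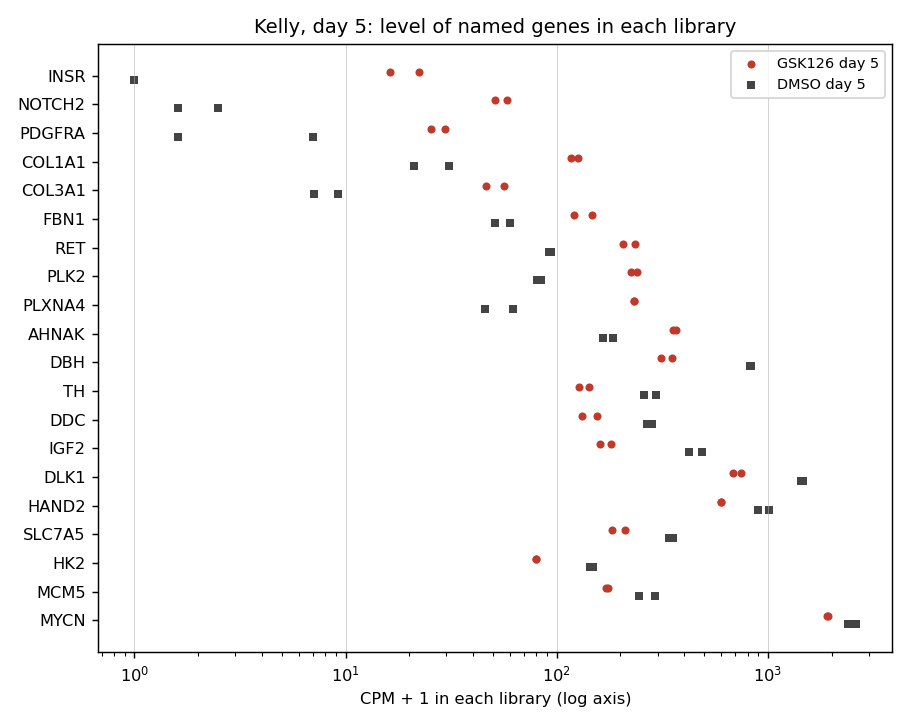
Level of 20 genes in each Kelly library at day 5, as CPM plus 1 on a log axis, with red points for the 2 GSK126 libraries and dark squares for the 2 DMSO libraries. INSR, at 21.3 and 15.3 CPM in GSK126, had no count in DMSO, and NOTCH2 and PDGFRA were low there. Genes of noradrenaline synthesis (DBH, TH and DDC), IGF2 and DLK1 lie to the left of their DMSO squares.

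Secreted signalling pathways moved unevenly. In the WNT list, 8 of 26 tested genes were called higher and none lower (median 0.37). They were antagonists (DKK1 and SFRP1), receptors (LGR5, LGR4 and FZD1), the ligand WNT5A and transcription factors (LEF1 and TCF7L2). DKK1, a secreted WNT antagonist, had 55.7 and 72.6 CPM in GSK126 and 27.7 and 22.5 CPM in DMSO (1.37 ± 0.21, adjusted p = 5.94e-07). SFRP1, another secreted antagonist, had 314 CPM in both GSK126 libraries and 196 and 169 CPM in DMSO (0.79 ± 0.11, adjusted p = 7.43e-09). LGR5, a receptor of R-spondins that strengthens WNT signals, had 34.4 and 33.6 CPM in GSK126 and 7.47 and 10.9 CPM in DMSO (1.85 ± 0.31, adjusted p = 3.83e-06). LEF1, a transcription factor of the pathway (1.10 ± 0.25, adjusted p = 0.00169), lost its call without DMSO replicate 1 (adjusted p = 0.0925), and 3 of the 8 kept theirs without any 1 library. Of 26 tested genes of the BMP and TGF-beta pathways, 5 were called higher and 1 lower (median 0.27), and 1 of the 5 (GREM1) passed the filter only through the GSK126 libraries of day 5. They included MSX2, a homeobox target of BMP signals (19.7 and 17.6 CPM in GSK126, 2.99 and 3.65 CPM in DMSO, 2.44 ± 0.44, adjusted p = 1.93e-05), and BAMBI, a decoy receptor (38.5 and 29.0 CPM in GSK126, 9.72 and 11.6 CPM in DMSO, 1.64 ± 0.30, adjusted p = 2.57e-05). In the Notch list 1 of 22 genes was higher (NOTCH2) and 2 were lower, and the median was -0.05.

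Several collagens and other genes of the extracellular matrix rose. Of 19 tested collagens, 5 were called higher and none lower, with a median of 0.47, and 14 of the 19 had an estimate above 0. COL1A1, a chain of type I collagen, stood at 125 and 116 CPM in GSK126 and at 29.9 and 20.1 CPM in DMSO (2.29 ± 0.19, adjusted p = 3.84e-19). COL3A1, the chain of type III collagen, had 54.9 and 45.1 CPM in GSK126 and 8.22 and 6.08 CPM in DMSO (2.81 ± 0.31, adjusted p = 9.99e-13). COL2A1, the cartilage collagen, had 25.4 and 25.2 CPM in GSK126 and 2.99 and 1.82 CPM in DMSO (3.38 ± 0.43, adjusted p = 5.49e-10). In all 3 the libraries of the groups were far apart, and the calls were kept without any 1 library. COL9A2 (1.90 ± 0.54) and COL5A1 (0.89 ± 0.27) were called too, but reached adjusted p = 0.178 without DMSO replicate 1 and 0.599 without GSK126 replicate 1.

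Of 48 other matrix genes tested, 10 were called higher and 1 lower (median 0.43), and 6 of the 10 rises and the fall were kept without any 1 library. FN1, fibronectin, had 295 and 307 CPM in GSK126 and 153 and 167 CPM in DMSO (0.91 ± 0.11, adjusted p = 6.12e-10). FBN1, the main protein of microfibrils, had 145 and 119.9 CPM in GSK126 and 50.1 and 59.0 CPM in DMSO (1.27 ± 0.16, adjusted p = 1.18e-09). AGRN, a proteoglycan of basement membranes, had 50.8 and 57.3 CPM in GSK126 and 17.2 and 12.8 CPM in DMSO (1.87 ± 0.25, adjusted p = 2.31e-09). MMP2, a protease that degrades matrix, rose in parallel (284 and 251 CPM in GSK126, 135 and 165 CPM in DMSO, 0.83 ± 0.11, adjusted p = 1.06e-08). FBLN1, a fibulin, was the single fall in that list, at 164 and 158 CPM in GSK126 and 232 and 239.5 CPM in DMSO (-0.55 ± 0.12, adjusted p = 0.000406).

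Rises were also found among adhesion receptors and the cytoskeleton. Of 22 integrins and cadherins tested, 5 were called higher and none lower (median 0.33), among them CDH11, a mesenchymal cadherin (291 and 267 CPM in GSK126, 175 and 189.7 CPM in DMSO, 0.61 ± 0.11, adjusted p = 1.3e-05), and CDH6, a cadherin of migrating neural crest (13.1 and 19.9 CPM in GSK126, 2.99 and 2.43 CPM in DMSO, 2.59 ± 0.52, adjusted p = 0.000144). Those 2 calls were kept without any 1 library. Of 30 tested genes of actin, contractility and annexins, 5 were called higher and none lower (median 0.16). AHNAK, a giant scaffold protein below the plasma membrane, had 366 and 352 CPM in GSK126 and 164 and 184 CPM in DMSO (1.04 ± 0.11, adjusted p = 8.03e-14), and VIM, the intermediate filament vimentin, had 183 and 186 CPM in GSK126 and 105 and 91.8 CPM in DMSO (0.91 ± 0.13, adjusted p = 2.04e-08). TUBB4A, a tubulin of neurons, was near 0 in DMSO (2.99 and 4.86 CPM) and stood at 66.4 and 72.6 CPM in GSK126 (4.08 ± 0.31, adjusted p = 1.73e-21), and EPB41L2, which anchors membrane proteins to the cytoskeleton, had 32.8 and 28.3 CPM in GSK126 and 4.48 and 3.65 CPM in DMSO (2.89 ± 0.37, adjusted p = 5.49e-10). WASF3, which starts actin branching at the cell edge, had 46.7 and 33.6 CPM in GSK126 and 2.24 and 4.86 CPM in DMSO (3.41 ± 0.36, adjusted p = 2.88e-13). PHACTR2, which binds actin and a protein phosphatase (3.88 ± 0.54), KIRREL, an adhesion protein of the immunoglobulin superfamily (3.80 ± 0.52), and PPAP2B, a lipid phosphatase of the cell surface (2.93 ± 0.45), completed the 12 largest rises among genes that reached 20 CPM. All 12 were kept without any 1 library, with the limit given for CCND2.

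Of 10 tested genes of the YAP and TEAD list, 5 were called higher and none lower, with a median of 0.95. They were PTPN14 and AMOTL2, which restrain YAP, CRIM1, a membrane protein that binds BMPs, and the factors TEAD1 and YAP1 themselves, which act together to transcribe growth and adhesion genes. TEAD1 stood at 493 and 453 CPM in GSK126 and at 361 and 362 CPM in DMSO (0.39 ± 0.09, adjusted p = 0.00295), and YAP1 at 27.9 and 33.6 CPM in GSK126 and at 20.2 and 14.6 CPM in DMSO (0.85 ± 0.27, adjusted p = 0.043). None of the 5 calls was kept in every fit without 1 library, and the adjusted p reached 0.115 for TEAD1 without GSK126 replicate 1 and 0.466 for YAP1 without DMSO replicate 2. It reached 0.287 for PTPN14 without GSK126 replicate 2, 0.256 for AMOTL2 without DMSO replicate 2 and 0.281 for CRIM1 without DMSO replicate 1.

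Transcription factors of the mesenchymal state were mostly not called: 2 of 19 were higher and none lower (median 0.19). PRRX1, a homeobox factor of limb and neural crest mesenchyme, had 28.7 and 22.9 CPM in GSK126 and 2.99 and 4.86 CPM in DMSO (2.65 ± 0.41, adjusted p = 3.22e-07), and its call was kept without any 1 library. SOX9, a factor of neural crest and cartilage (0.77 ± 0.22, adjusted p = 0.0166), reached adjusted p = 0.397 without DMSO replicate 2. PDGFRA and PRRX1 also stand in a list of 14 fibroblast and smooth muscle markers, of which 8 were tested and no other was called. The summed level of the 8 was 229.5 and 232 CPM in GSK126 and 166 and 153 CPM in DMSO, and PDGFRB, the defining marker of that list, had 96 and 125 counts in GSK126 and 96 and 119 in DMSO. Of 14 endothelial markers, 3 were tested and 2 (KDR and ENG) were called higher, with a summed level of 46.7 and 32.8 CPM in GSK126 and 29.9 and 26.7 CPM in DMSO, while CDH5 was at 0. ENG lost its call without GSK126 replicate 1 (adjusted p = 0.259), and KDR and ENG both passed the filter only through the GSK126 libraries of day 5. No tested marker of blood cells or of Schwann cells and glia was called (2 tested in each list), and no epithelial marker passed the filter on low counts. In bulk RNA a change in the share of cells and a change in the RNA of each cell cannot be told apart.

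The enzymes of noradrenaline synthesis fell. TH, the first and rate-limiting enzyme, stood at 126 and 141 CPM in GSK126 and at 293 and 258 CPM in DMSO (-1.04 ± 0.12, adjusted p = 8.26e-12). DDC, which makes dopamine, had 153 and 131 CPM in GSK126 and 281 and 266 CPM in DMSO (-0.95 ± 0.11, adjusted p = 1.09e-10). DBH, which turns dopamine into noradrenaline, had 352 and 312 CPM in GSK126 and 827 and 821 CPM in DMSO (-1.31 ± 0.09, adjusted p = 2.67e-23). In each of the 3 both GSK126 libraries were well below both DMSO libraries, and no left-out library ended a call. SLC6A2, the transporter that takes noradrenaline back up, went the other way (121 and 106 CPM in GSK126, 83.7 and 79.0 CPM in DMSO, 0.48 ± 0.15, adjusted p = 0.0391), and its call was lost without any 1 of the 4 libraries, with an adjusted p of up to 0.322 without GSK126 replicate 1. These were the 4 called genes among 13 tested for catecholamine synthesis, storage and uptake, where the median was -0.25.

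Part of the transcription factor circuit of the noradrenergic state fell with the enzymes. Of 22 tested factors, 5 were called lower and 1 higher (median -0.21). INSM2, a zinc finger factor of neuroendocrine cells, had 231 and 235 CPM in GSK126 and 449 and 387 CPM in DMSO (-0.84 ± 0.10, adjusted p = 1.68e-10). HAND2, a basic helix-loop-helix factor of sympathetic neurons, had 600.0 and 600.4 CPM in GSK126 and 1009.7 and 899.7 CPM in DMSO (-0.67 ± 0.09, adjusted p = 7.79e-10). TFAP2B, an AP-2 factor, had 235 and 186 CPM in GSK126 and 328 and 333 CPM in DMSO (-0.65 ± 0.11, adjusted p = 1.74e-06). These 3 calls were kept without any 1 library. TBX2, a T-box factor, was called higher (0.38 ± 0.10, adjusted p = 0.0129) but reached 0.416 without DMSO replicate 1. GATA2 (-0.07 ± 0.09, adjusted p = 0.749), GATA3 (-0.05 ± 0.09, adjusted p = 0.869), ISL1 (-0.08 ± 0.12, adjusted p = 0.814) and PHOX2A (-0.17 ± 0.11, adjusted p = 0.476) were not called.

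Secretory cargo and neuronal structure genes split. Of 14 granins, neuropeptides and granule enzymes tested, 3 were higher and 3 lower (median 0.11). CHGA, the granule protein chromogranin A, had 1892 and 1795 CPM in GSK126 and 2643 and 2827 CPM in DMSO (-0.57 ± 0.08, adjusted p = 6.45e-09), and GAL, the peptide galanin, had 56.6 and 52.7 CPM in GSK126 and 131 and 102 CPM in DMSO (-1.08 ± 0.17, adjusted p = 3.95e-07). NPY, neuropeptide Y, was higher (18.9 and 25.2 CPM in GSK126, 8.22 and 4.26 CPM in DMSO, 1.86 ± 0.41, adjusted p = 0.000882), a call that reached adjusted p = 0.14 without DMSO replicate 2. Of 45 neuronal cytoskeleton, adhesion and synapse genes, 4 were higher and 4 lower, with a median of 0.03. DCX, a microtubule protein of migrating neurons, rose (247 and 238 CPM in GSK126, 168 and 151 CPM in DMSO, 0.61 ± 0.11, adjusted p = 4.1e-05) and CNTNAP2, an axonal adhesion protein, fell (539 and 597 CPM in GSK126, 877 and 737 CPM in DMSO, -0.50 ± 0.09, adjusted p = 7.61e-06). RAB27B, a GTPase of secretory granules, had 23.0 and 25.2 CPM in GSK126 and 53.8 and 52.3 CPM in DMSO (-1.13 ± 0.22, adjusted p = 0.000168). These 3 calls were kept without any 1 library.

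Of the 12 largest falls among genes that reached 20 CPM, 8 lost their call without at least 1 library, and IGF2, DBH, RTL1 and RAB27B kept theirs. Among the 8 were KLF15, a zinc finger factor of metabolism (-1.43 ± 0.37, adjusted p = 0.0802 without GSK126 replicate 2), PSMC3IP, a meiotic recombination cofactor (-1.35 ± 0.35, 0.469 without DMSO replicate 2), SLC2A4RG (-1.32 ± 0.34, 0.475 without GSK126 replicate 2) and SHPK, a sugar kinase (-1.22 ± 0.33, 0.26 without GSK126 replicate 2). CAMKK1, a calcium-dependent kinase (-1.16 ± 0.34), and ZFP69B, a zinc finger gene (-1.16 ± 0.34), reached adjusted p = 0.307 and 0.499 without GSK126 replicate 2. CARTPT, the precursor of the CART peptide, had 13.9 and 12.2 CPM in GSK126 and 35.9 and 24.9 CPM in DMSO (-1.19 ± 0.30, 0.192 without DMSO replicate 1). LINC00682, a long noncoding RNA, had 9.84 and 13.0 CPM in GSK126 and 24.7 and 26.7 CPM in DMSO (-1.16 ± 0.31, 0.168 without GSK126 replicate 1).

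Axon guidance genes rose where they were called. Among 29 semaphorins, plexins and neuropilins, 3 were higher and none lower (median 0.18). Among 29 ephrin, Slit and netrin genes, 6 were higher and none lower (median 0.20). Over all tested genes 3.3% were higher and 1.6% lower. PLXNA4, a semaphorin receptor of sympathetic and sensory axons, had 232 and 229.9 CPM in GSK126 and 44.8 and 60.8 CPM in DMSO (2.11 ± 0.15, adjusted p = 4.44e-24). EFNB3, an ephrin ligand, had 60.7 and 74.9 CPM in GSK126 and 23.2 and 29.2 CPM in DMSO (1.36 ± 0.21, adjusted p = 3.33e-07), and SLIT2, a repellent of axons, had 68.9 and 67.2 CPM in GSK126 and 26.2 and 35.3 CPM in DMSO (1.13 ± 0.20, adjusted p = 1.55e-05). CRABP2, which carries retinoic acid to its receptors, was the single called gene of 10 in the retinoid list, at 45.1 and 47.4 CPM in GSK126 and 13.5 and 12.8 CPM in DMSO (1.82 ± 0.26, adjusted p = 6.36e-08). All 4 of these calls were kept without any 1 library.

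Imprinted genes, which are read from 1 parental copy, moved in both directions: of 20 tested, 3 were lower and 2 higher (median 0.15), and all 5 calls were kept without any 1 library. IGF2, a fetal growth factor, had 179.5 and 159 CPM in GSK126 and 484 and 422 CPM in DMSO (-1.42 ± 0.11, adjusted p = 8.62e-19). DLK1, a Delta-like protein of progenitor cells, had 740.2 and 681 CPM in GSK126 and 1456 and 1427 CPM in DMSO (-1.02 ± 0.08, adjusted p = 1.27e-19). RTL1, a retrotransposon-derived gene beside DLK1 (chromosome 14, 101192042 to 101370059 for the pair, GRCh37), had 86.1 and 96.2 CPM in GSK126 and 208 and 216 CPM in DMSO (-1.22 ± 0.13, adjusted p = 2.78e-12). NDN, which codes for necdin, was higher (21.3 and 27.5 CPM in GSK126, 0.747 and 7.29 CPM in DMSO, 2.47 ± 0.43, adjusted p = 1.09e-05), as was PEG3, a zinc finger gene (61.5 and 59.6 CPM in GSK126, 29.9 and 32.8 CPM in DMSO, 0.94 ± 0.20, adjusted p = 0.000473).

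The insulin-like growth factor axis held both large rises and a large fall. Of 13 tested genes, 4 were higher and 2 lower (median 0.29). Beside the receptor INSR and the ligand IGF2, the binding protein IGFBP3, which sequesters the ligands, had 61.5 and 50.4 CPM in GSK126 and 6.73 and 14.0 CPM in DMSO (2.37 ± 0.27, adjusted p = 8.22e-12). IGFBP5, another binding protein, had 206 and 209 CPM in GSK126 and 117 and 119 CPM in DMSO (0.81 ± 0.12, adjusted p = 1.29e-07). These 4 calls were kept without any 1 library. IGFBP2 was lower (-0.60 ± 0.14, adjusted p = 0.00159), with adjusted p = 0.138 without DMSO replicate 2. IGF2BP2, which binds the IGF2 mRNA, had 7 counts in GSK126 and none in DMSO (adjusted p = 0.0323), with adjusted p = 0.26 without DMSO replicate 2.

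HLA class I genes, which present peptides to T cells and are weakly expressed in neuroblastoma, included 2 rises among 11 tested genes of the pathway (median 0.26). HLA-B had 34.4 and 26.0 CPM in GSK126 and 2.24 and 2.43 CPM in DMSO (3.63 ± 0.45, adjusted p = 2.81e-10), and HLA-C had 50.8 and 53.5 CPM in GSK126 and 15.7 and 17.0 CPM in DMSO (1.66 ± 0.25, adjusted p = 1.51e-07). Their near-identical sequences can share reads, so how the rise divides between the 2 genes is uncertain. Of 12 interferon-stimulated genes tested, TRIM25, a ubiquitin ligase of RNA sensing, was higher (85.3 and 99.3 CPM in GSK126, 48.6 and 55.3 CPM in DMSO, 0.82 ± 0.17, adjusted p = 0.000213). ISG15, a ubiquitin-like protein, had 7 counts in GSK126 and none in DMSO (adjusted p = 0.0482) and lost its call without any 1 of the 4 libraries, with an adjusted p of up to 0.35 without GSK126 replicate 2.

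MYCN and the called genes of amino acid supply, glycolysis and DNA replication were lower, most of them by small amounts. MYCN, the amplified oncogene, stood at 1901 and 1929 CPM in GSK126 and at 2399 and 2616 CPM in DMSO (-0.39 ± 0.08, adjusted p = 0.000181), the single call among 11 genes of the MYC and MAX network (median -0.26). Of 42 genes of amino acid uptake, synthesis and tRNA charging, 14 were called lower and none higher (median -0.26), and 3 of the 42 had an estimate above 0. SLC7A5, the large neutral amino acid transporter, had 208 and 182 CPM in GSK126 and 355 and 339 CPM in DMSO (-0.83 ± 0.11, adjusted p = 1.5e-09), and SARS, which charges tRNA with serine, had 231 and 229 CPM in GSK126 and 316 and 312 CPM in DMSO (-0.45 ± 0.10, adjusted p = 0.00183). MYCN, SLC7A5 and SARS kept their calls without any 1 library, and 2 of the 14 calls in the amino acid list did so. ATF4, the transcription factor of the amino acid response, was called (-0.36 ± 0.10, adjusted p = 0.0224) but in none of the fits without 1 library (adjusted p up to 0.224 without DMSO replicate 1).

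Glycolysis and hypoxia genes held 9 falls and no rise among 32 tested (median -0.27). HK2, a hexokinase that starts glycolysis, had 78.7 CPM in both GSK126 libraries and 143 and 148 CPM in DMSO (-0.89 ± 0.14, adjusted p = 4.52e-07). TPI1 (642 and 627 CPM in GSK126, 853 and 857 CPM in DMSO, -0.43 ± 0.09, adjusted p = 0.000179) and ALDOA (786 and 748 CPM in GSK126, 1034 and 1032 CPM in DMSO, -0.43 ± 0.09, adjusted p = 0.000227), enzymes of the middle of the pathway, were lower by less. These 3 of the 9 kept their calls without any 1 library. The respiratory chain held 1 call, lower, among 75 nuclear-encoded genes (median -0.03), and the unfolded protein response held none among 18 (median -0.07).

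Cell cycle genes fell in the replication part of the list. Of 46 genes of the G1/S step and DNA replication, 11 were called lower and none higher (median -0.26), and 3 had an estimate above 0. MCM5, a subunit of the replicative helicase, had 174 and 170.3 CPM in GSK126 and 244 and 291 CPM in DMSO (-0.64 ± 0.11, adjusted p = 8.4e-06). It was the 1 gene of the 11 whose call was kept without any 1 library. Without DMSO replicate 2, MCM4, another helicase subunit (-0.43 ± 0.09), reached adjusted p = 0.0716 and RRM2, which makes deoxynucleotides (-0.39 ± 0.09), reached 0.0645. Of 53 replication-dependent histone genes, which are transcribed in S phase, 7 were lower and none higher (median -0.22), and of 48 nucleolar and ribosome biogenesis genes, 5 were lower and none higher (median -0.22). None of those 12 calls was kept in every fit without 1 library. Mitosis genes held 2 falls among 45 (median -0.16), beside 1.6% lower over all tested genes and 4.98% lower among genes at 100 CPM or more. The coefficients are relative to the bulk of genes, whose median was 0.01.

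**Figure D3:**
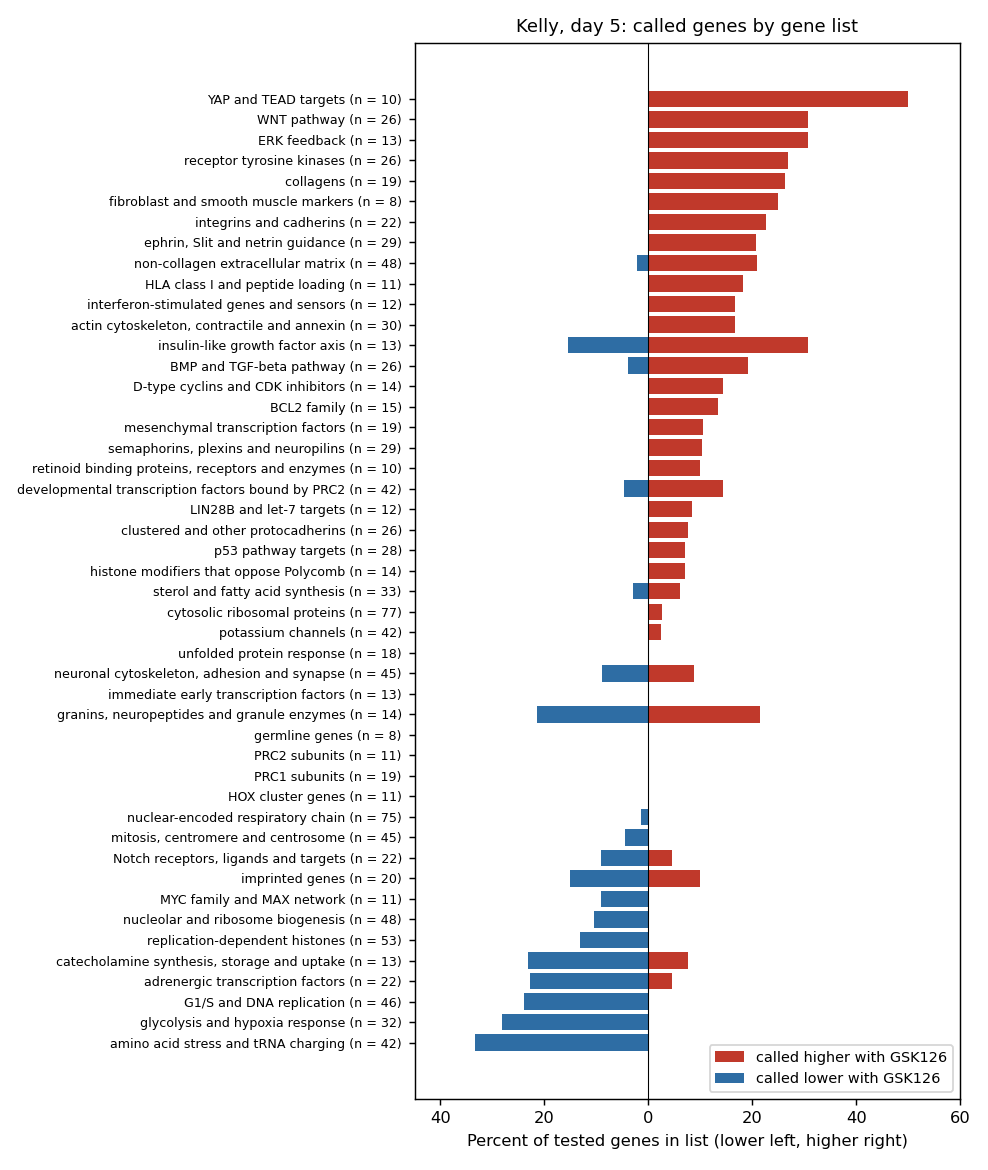
Percent of the tested genes of each list that were called at day 5 in Kelly, with red bars to the right for genes higher in GSK126 and blue bars to the left for genes lower (lists with at least 8 tested genes, n beside each name). Receptor tyrosine kinases (7 higher of 26) and the WNT pathway (8 higher of 26) reach to the right. Amino acid genes (14 lower of 42) and glycolysis (9 lower of 32) reach to the left. Over all tested genes 3.3% were higher and 1.6% lower, shares that vary with expression level, for which the lists were not matched.

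Most developmental regulators were too low to test. Of 108 developmental transcription factors known as PRC2 targets, 42 passed the filter on low counts, of which 6 were higher and 2 lower (median 0.19). FOXC1, a forkhead factor of mesenchyme, had 33.6 and 52.7 CPM in GSK126 and 14.9 and 15.8 CPM in DMSO (1.49 ± 0.26, adjusted p = 7.61e-06), and its call was kept without any 1 library, as was that of MSX2. LHX1, a homeobox factor of early neurons, was higher (3.01 ± 0.70), but it passed the filter only through the GSK126 libraries of day 5 and lost its call without GSK126 replicate 1 (adjusted p = 0.104). Of 39 HOX cluster genes 11 were tested and none was called (median -0.06), and of 37 germline genes 8 were tested and none was called (median 0.14). In a list of 4 genes named in neuroblastoma as repressed by EZH2, NGFR, the low-affinity neurotrophin receptor, was called (1.65 ± 0.43, adjusted p = 0.00689) but reached adjusted p = 0.219 without DMSO replicate 2. The others were not called: CLU had 0.41 ± 0.18 (adjusted p = 0.204), CASZ1 -0.05 ± 0.15 (adjusted p = 0.932) and RUNX3 -0.02 ± 0.33 (adjusted p = 0.995). Of 28 genes of the p53 pathway 2 were higher and none lower (median 0.14), beside 3.3% higher over all tested genes. PLK2, a stress-induced kinase of the centrosome, had 239 and 224 CPM in GSK126 and 79.2 and 83.3 CPM in DMSO (1.50 ± 0.13, adjusted p = 2.78e-18). Its call was kept without any 1 library.

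The day 5 response was set beside that at day 2 in the same line to ask how much of it was already there. At day 2, 20 genes were called higher (0.169%) and 1 lower (0.00843%), of which 13 and 1 were called in the same direction at day 5. Most day 5 calls had an estimate of the same sign at day 2. These were 325 of the 391 higher genes and 145 of the 190 lower genes. The median log2 fold changes over the 391 and the 190 were 0.33 and -0.08 at day 2. The genes were picked by their day 5 values, which by itself favours smaller medians at day 2. The estimates of the 2 days had a Pearson correlation of 0.42 and a Spearman correlation of 0.23 across all 11863 genes, which share a line and a fit and are not independent. COL1A1 was called at both days, with 45.9 and 38.3 CPM in GSK126 and 9.88 and 13.0 CPM in DMSO at day 2 (1.84 ± 0.27, adjusted p = 4.44e-06). The test of the difference itself, the day 5 effect minus the day 2 effect, called 45 genes (0.379%). Of these, 43 were called at day 5, all with a larger change at day 5 in the same direction (24 higher and 19 lower). A call at day 5 favours that direction of the difference. The number fell to 22 without DMSO replicate 1 and 26 without GSK126 replicate 2 of day 5, and to 24 and 27 without GSK126 replicate 1 and 2 of day 2. The 6 genes named next were called without any 1 library and by DESeq2.

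The smallest adjusted p of these differences belonged to falls of day 5, those of DLK1, DBH and IGF2. DLK1 differed by -1.14 ± 0.12 on the log2 scale between the days (adjusted p = 4.65e-13), with 1171 and 1129 CPM in GSK126 and 969 and 1143 CPM in DMSO at day 2. DBH differed by -1.17 ± 0.13 (adjusted p = 1.44e-11), with 645 and 629 CPM in GSK126 and 610.0 and 794 CPM in DMSO at day 2. The groups overlapped in DBH at day 2, and so they did in IGF2, with 335 and 316 CPM in GSK126 and 258 and 376 CPM in DMSO (difference -1.44 ± 0.16, adjusted p = 2.08e-11). RTL1, with 157 and 169 CPM in GSK126 and 124 and 177 CPM in DMSO at day 2, differed by -1.30 ± 0.18 (adjusted p = 2.05e-07). On the rising side, PLXNA4 differed by 1.78 ± 0.20 (adjusted p = 3.37e-11) and PLK2 by 1.46 ± 0.19 (adjusted p = 5.29e-09). At day 2, PLXNA4 had 152 and 135 CPM in GSK126 and 111 and 117 CPM in DMSO, and PLK2 had 125 and 111 CPM in GSK126 and 119 and 111 CPM in DMSO.

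For each of these genes the DMSO libraries of day 5 did not overlap those of day 2. PLXNA4 averaged 52.8 ± 11.3 CPM in DMSO at day 5 and 114 ± 3.85 CPM at day 2 (SD, n = 2 each), and DLK1 averaged 1441 ± 20.5 CPM at day 5 and 1056 ± 123 CPM at day 2. In DMSO, IGF2 averaged 453 ± 43.7 CPM at day 5 and 317 ± 83.5 CPM at day 2. RTL1 averaged 212 ± 6.12 and 150 ± 37.4 CPM, and DBH 824 ± 4.26 and 702 ± 130 CPM. PLK2 was lower in both DMSO libraries of day 5 than in those of day 2. RET also differed, with 219 ± 20.4 CPM in GSK126 at day 5 and 238 ± 11.8 CPM in GSK126 at day 2, but 91.8 ± 0.867 CPM in DMSO at day 5 and 194 ± 9.95 CPM in DMSO at day 2. Its effect of 1.25 at day 5 therefore stood beside a GSK126 level close to that of day 2. RET was picked here after its values were seen, and the part of the DMSO change in the calls was not tested.

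**Figure D4:**
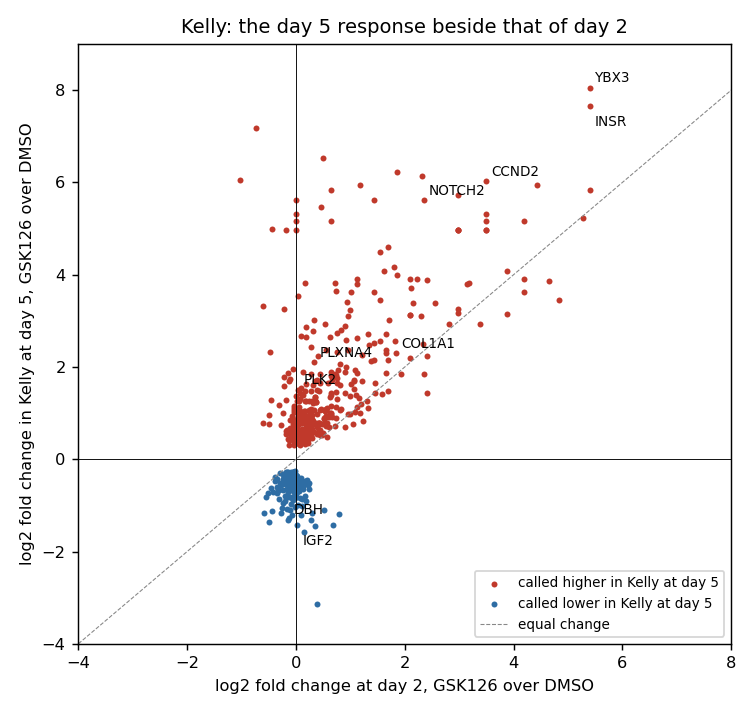
Log2 fold change of GSK126 over DMSO in Kelly at day 5 (vertical) against that at day 2 (horizontal) for the 581 genes called at day 5, red for higher and blue for lower, with the dashed line marking equal change. Most points lie farther from 0 on the vertical axis, which picking the genes by their day 5 values favours. COL1A1 lies near the line (2.29 at day 5 and 1.84 at day 2), and DBH lies near 0 at day 2 (-1.31 at day 5).

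The Kelly response was last set beside that of LAN-1 at day 5. In LAN-1, 291 genes were called higher (2.45%) and 143 lower (1.21%), 3.66% in all. The lines shared 64 of the higher genes, 16.4% of the 391 of Kelly and 22.0% of the 291 of LAN-1, and 8 of the lower genes, 4.21% of the 190 of Kelly and 5.59% of the 143 of LAN-1. A further 5 genes were called in opposite directions. The genes called in Kelly had median log2 fold changes of 0.33 (higher) and -0.03 (lower) in LAN-1. The same sign was found there for 283 of the 391 and 101 of the 190. Picking the genes by their Kelly values by itself favours smaller medians in LAN-1. The difference of the effects, Kelly minus LAN-1, was called for 220 genes (1.85%; 0.936% above and 0.919% below LAN-1), of which 136 were called in Kelly, 4 of them against the direction of the Kelly change. That number rose to 479 without LAN-1 GSK126 replicate 1, and counts within the LAN-1 GSK126 duplicate varied 2.04 times as much as counting alone gives. It fell to 117 without Kelly DMSO replicate 2, 131 without Kelly GSK126 replicate 2, 128 without LAN-1 DMSO replicate 1 and 142 without LAN-1 GSK126 replicate 2.

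Several of the largest differences belonged to genes that LAN-1 expresses without the drug. NOTCH2, near 0 in Kelly DMSO, had 230.1 and 213 CPM in LAN-1 GSK126 and 208 and 173 CPM in LAN-1 DMSO (difference of effects 5.40 ± 0.48, adjusted p = 3.44e-17). TUBB4A had 77.6 and 106 CPM in LAN-1 GSK126 and 64.8 and 68.1 CPM in LAN-1 DMSO (difference 3.65 ± 0.38, adjusted p = 4.75e-13), and EPB41L2 had 125 and 120.1 CPM in LAN-1 GSK126 and 140.0 and 155 CPM in LAN-1 DMSO (difference 3.15 ± 0.39, adjusted p = 1.51e-09). YBX3 stood at 144 and 158 CPM in LAN-1 GSK126 and at 166 CPM in both LAN-1 DMSO libraries (adjusted p of the difference 4.34e-13). The Kelly GSK126 levels of NOTCH2, EPB41L2 and YBX3 stayed below those of LAN-1, whose groups lay close to each other. Other genes that rose in Kelly rose in LAN-1 too: AHNAK had 949 and 831 CPM in LAN-1 GSK126 and 345 CPM in both LAN-1 DMSO libraries (1.37 ± 0.09, adjusted p = 8.55e-25), and RET had 154 and 151 CPM in LAN-1 GSK126 and 89.8 and 79.0 CPM in LAN-1 DMSO (0.85 ± 0.14, adjusted p = 5.89e-06).

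Among the falls of Kelly, IGF2 and CHGA had the smallest adjusted p for a difference between the lines. IGF2 had 166 and 214 CPM in LAN-1 GSK126 and 149 and 135 CPM in LAN-1 DMSO (difference of effects -1.81 ± 0.18, adjusted p = 1.79e-13), and CHGA had 339 and 353 CPM in LAN-1 GSK126 and 249 and 259.7 CPM in LAN-1 DMSO (difference -1.01 ± 0.13, adjusted p = 3.03e-09). TH and DBH had at most 4.90 CPM in any LAN-1 library of day 5, so their fall has no counterpart that could be read there. The lists of growth genes differed in part: 7 of 32 glycolysis and hypoxia genes and 5 of 42 amino acid genes had a lower effect in Kelly than in LAN-1 by the test of the difference, as did 2 of 46 G1/S and replication genes. In LAN-1 itself, 1 glycolysis gene was higher and 1 lower, and 4 amino acid genes were lower. MYCN had 1775 and 1943 CPM in LAN-1 GSK126 and 1695 and 1669.8 CPM in LAN-1 DMSO (0.14 ± 0.08, adjusted p = 0.362).

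**Figure D5:**
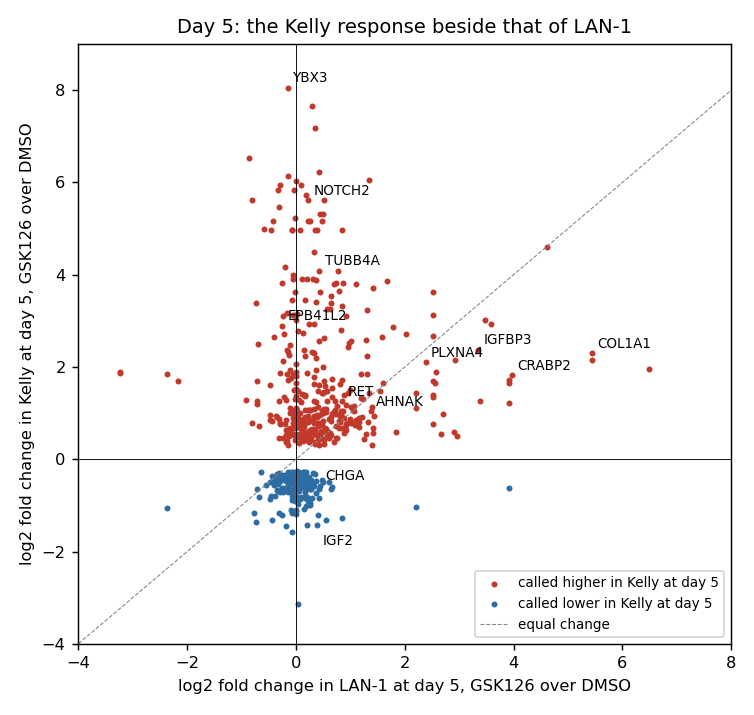
Log2 fold change of GSK126 over DMSO at day 5 in Kelly (vertical) against LAN-1 (horizontal) for the 581 genes called in Kelly, red for higher and blue for lower, with the dashed line marking equal change. Most genes form a column near 0 on the LAN-1 axis, NOTCH2 among them, and picking the genes by their Kelly values favours this. AHNAK (1.04 in Kelly and 1.37 in LAN-1) and RET (1.25 and 0.85) lie near the dashed line, and IGF2 and CHGA lie to the lower right.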

How the data were processed

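RNA of Kelly and LAN-1 was extracted with RNeasy columns and sequenced on an Illumina instrument, per the labels' protocols. The deposited table holds whole-number counts per gene symbol, which the authors did not normalize. The submitters' processing notes name FastQC, TopHat2, featureCounts and the build GRCh37 (hg19), and the strand setting, the annotation and the versions are not given in the sources used here. Of 25728 symbols, 6598 had no read, and 28 had been turned into dates and are never named. Total counts ran from 912095 to 1666190 over the 16 libraries, so low genes rest on few reads.

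Counts were fitted with edgeR 4.0.16 in R 4.3.3, with TMM scaling, a filter on low counts (filterByExpr, minimum count 10, which left 11863 genes) and a robust quasi-likelihood test over all 16 libraries in 8 groups, with 8 residual degrees of freedom. P-values were adjusted by Benjamini-Hochberg over all tested genes, and a gene was called at an adjusted p under 0.05. The differences between days and between lines were interaction contrasts of the same fit. Printed CPM use the TMM scaling. For genes with 0 counts in DMSO a bound against 3 counts over the group replaced the fold change, and for 1 to 3 counts a ratio with an exact conditional 95% interval did so. The scripts were tested on simulated data. DESeq2 1.42.0, other scalings, filters and sample sets, the replicate block and leaving out each library were the alternatives.

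The genes named are EZH2, EZH1, EED, SUZ12 and MYCN, the 12 largest rises and the 12 largest falls among called genes with libraries that do not overlap and at least 20 CPM in the higher group, the 12 called genes with the most GSK126 counts among those with 0 or 1 count in DMSO, up to 4 called members of each list with the smallest adjusted p, and the 6 genes with the smallest adjusted p of each interaction. Markers and some other list members are named too, and some genes that the rule selects are not reported here. The members and lists were chosen with earlier results of these data known. List counts are descriptions with no test of the list. Gene positions come from GENCODE 44 lifted to GRCh37 (11714 tested genes matched by symbol), and promoter sequences from RefSeq on GRCh38. The data were read with pandas 2.3.3 and drawn with matplotlib 3.10.9 in Python 3.11.15.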

Additional observations from a re-analysis of the deposited data

Results flagged for a closer look

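Results are given here because the effect of GSK126 at day 5 in Kelly differed from another effect by the test of the difference itself. Against day 2 in Kelly, 45 genes differed. The day 5 effect minus the day 2 effect was -1.44 for IGF2, -1.30 for RTL1, -1.17 for DBH and -1.14 for DLK1 on the log2 scale, and all 4 were lower with GSK126 at day 5. It was 1.78 for PLXNA4 and 1.46 for PLK2, which were higher. For all of these genes the DMSO libraries of day 5 did not overlap those of day 2. They were higher at day 5 for IGF2, RTL1, DBH and DLK1 and lower for PLXNA4 and PLK2. The part of the DMSO level in the differences was not tested.

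Against LAN-1 at day 5, 220 genes differed. The Kelly effect minus the LAN-1 effect was 5.40 for NOTCH2, 3.65 for TUBB4A and 3.15 for EPB41L2, all expressed in LAN-1 with DMSO. YBX3 had a fitted difference of 8.20, which rests on 0 counts in Kelly DMSO and depends on the prior count. IGF2 (-1.81) and CHGA (-1.01) were lower with GSK126 in Kelly.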

How the results depend on the processing

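The number of genes called at day 5 (581) was 578 with DESeq2-style size factors, 559 with no filter on low counts, 492 with a minimum count of 30, 583 in a fit of the 8 Kelly libraries and 550 in a fit of the 4 libraries of day 5. DESeq2 called 163, all among the 581. Without 1 library the number ran from 239 to 355, with no change of sign among the called genes. The deviations of same-numbered libraries had a correlation of -0.03 for GSK126 and DMSO at day 5. Duplicates varied little beyond counting, so this value cannot show whether the replicate numbers mark pairs. The fit with the replicate block gave 552 calls, of which 551 were among the 581. The difference between days (45 genes) gave 43 under the block, 14 with DESeq2 and 22 to 46 without 1 library. The difference between lines (220 genes) gave 218 under the block, 59 with DESeq2 and 117 to 479 without 1 library. Over the genes named by the rule, 75 of 140 calls held whichever of the 4 libraries was left out, and no value changed sign. With 2 libraries a group and 912095 to 1666190 counts in each, small changes of genes with few counts were hardly detectable. Called genes with a mean under 10 CPM over all 16 libraries had a median size of change of 2.28 on the log2 scale. ISG15 had the highest adjusted p of the named genes under the block (0.0532). The cause of the losses was not tested, beyond the smaller number of libraries in the fits that leave 1 out.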

Other observations

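Genes called higher with GSK126 in Kelly at day 5 made up 3.3% of all tested genes, and the share varied between chromosomes. On the X chromosome 31 of 433 tested genes were called higher (7.16%) and 2 lower, and on chromosome 5 the share higher was 5.62%, while on chromosome 2 it was 1.15%. These chromosomes were picked for high or low shares after the values were seen, and the spread was not tested. There were 5 places where 3 neighbouring tested genes were all called higher: LPPR5, LPPR4 and PALMD, and SOX13, ETNK2 and PLEKHA6, both on chromosome 1, ADAM12, DOCK1 and PTPRE on chromosome 10, PDGFRA, KIT and KDR on chromosome 4, and SV2C, IQGAP2 and F2R on chromosome 5. These runs were picked after their values were seen, and KDR and SOX13 passed the filter on low counts only through the GSK126 libraries of day 5.

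Of the genes called lower, 155 of 190 had a promoter entry, and 14.84% of these windows held the E-box CACGTG (read on both strands, since it is its own reverse complement), beside 10.63% of the 9564 windows of all tested genes. The 5 printed promoters held none. The median number of CG dinucleotides was 27 in both sets. A match is a run of letters in the window and was not tested as a site.

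Lists with few calls at day 5 included the cytosolic ribosomal proteins, with 2 of 77 tested genes higher and none lower (median 0.01), the immediate early transcription factors, with no call among 13, and sterol and fatty acid synthesis, with 2 of 33 higher (FADS1 and FADS2) and 1 lower. In LAN-1 at day 5, 13 of the same 33 sterol and fatty acid genes were higher. The difference between the lines was called for 3 of the 33, each with a lower effect in Kelly. Of the BCL2 family, which controls cell death, 2 of 15 were higher (BCL2 and BMF), beside 3.3% of all tested genes. Neither kept its call in every fit without 1 library.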
